A study of Mus musculus with 16 samples.

Results

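Enteroendocrine hormone genes were followed through the terminal ileum of 16 mice. They are 10 genes chosen by name for their place in the hormone-secreting cells of the gut lining, out of 24940 genes counted: Gcg, Pyy, Cck, Nts, Sct, Gip, Sst, Chga, Chgb and Neurod1. All 10 were in the table and 9 had enough reads to be tested, the exception being Gip. Enteroendocrine cells are scattered singly among the absorptive cells of the epithelium, sense nutrients and bile acids in the lumen, and release peptides that act on the pancreas, gallbladder, gut muscle and brain. Each cell builds its peptides from larger precursors, packs them with granins into dense-core granules and releases them on stimulation. The terminal ileum is known for cells that make glucagon-like peptides, peptide YY and neurotensin, whereas cells that make cholecystokinin and GIP are commoner in the upper small intestine.

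RNA sequencing was performed on 1 cm of C57BL/6 terminal ileum taken next to the cecum, to ask whether loss of BCL6 in the liver reaches gene expression in the ileum. Bcl6 encodes a transcriptional repressor. Control mice (WT) carried the floxed allele on both chromosomes (Bcl6 fl/fl), and knockout mice (LKO) carried the same alleles with Alb-cre. The albumin promoter drives Cre in hepatocytes, so by design the ileal cells should keep Bcl6 in both genotypes. Ileal Bcl6 RNA is not reported here, and no Cre-only control was among the groups. Each genotype was represented by 4 males and 4 females. The study's methods describe animals that were fed freely or fasted for some hours, without saying which applied to these ileal samples, and their age was not given in the sources used here. Feeding is known to act on gut hormones.

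The 16 libraries held 15739601 to 20467119 counted reads, apart from female LKO replicate 1 with 60324336. The 10 hormone genes took between 0.0339% and 0.0433% of the counts of a library. Levels are given as CPM (the count scaled to a library of 1000000 counted reads) for comparisons between animals and as the same value per kilobase of transcript (RPKM) for comparisons between genes. Genes tied to position along the gut were read first, and they do not settle where each piece was cut. The ileal bile acid genes Fabp6 and Slc10a2 averaged 7739.9 and 147 RPKM, the duodenal factor Pdx1 was at 0 counts in 8 libraries and never above 8 counts, and 5 of 17 pancreas markers (Ins1, Cpa1, Pnlip, Try4 and Amy2b) were at 0 in all 16. The 17 together summed to between 2500.1 and 4082 CPM in a library, of which Zg16, also a goblet cell gene, made up 3071 CPM and the colipase gene Clps 94.5 CPM on average. The 14 counted colon markers, which include the Paneth cell gene Ang4, summed to between 1279 and 3234 CPM in a library. Of 13 tested proximal or distal markers, 5 were higher and 3 lower in male LKO at an unadjusted edgeR p under 0.05, against 5.29% of all genes. The pieces were whole tissue, so fewer hormone cells and less hormone RNA per cell cannot be told apart.

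Promoter stretches are shown for the 5 members whose window held the letters TGACG on either strand. They were chosen by this match and not by their levels. They come from RefSeq windows of 300 bases (250 before and 50 after the start of transcription; GRCm38.p6, the mm10 assembly), in which all 10 members were found with 11 windows. Capitals mark the cAMP response element TGACGTCA, or its first letters TGACG where the full element is absent, on either strand, and each stretch is printed along the strand of its gene.

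Chgb: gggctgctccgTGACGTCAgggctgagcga

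Sst: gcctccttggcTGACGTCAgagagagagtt

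Chga: gggggcggtcctaTGACGtaatttcctggg

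Cck: tcctgctggactgCGTCAgcactgggtaaa

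Nts: aattagggaagatCGTCActttccatcaag

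The Chgb stretch lies at chr2:132781559-132781588 on the plus strand, with the element 72 bases before the RefSeq start of this window. The Sst stretch lies at chr16:23890874-23890903 on the minus strand, with the element 48 bases before the start. Those of Chga (chr12:102554884-102554913, plus strand), Cck (chr9:121495725-121495754, minus strand) and Nts (chr10:102490568-102490597, minus strand) hold the short form 44, 47 and 166 bases before the start, reading on the opposite strand in Cck and Nts. The full element was in 2 of 10 members and in 588 of all 32851 windows (1.79%). TGACG, which every full element contains, was in 5 of 10 members and 20.8% of windows. The E-box CANNTG was in all 10 members and 72.3% of windows, and TATAAA in 3 members (Gcg, Sct and Chga) and 13.6% of windows. These are matches of letters and no measurement of binding. The window of Chgb starts inside the counted transcript (chromosome 2, 132781278 to 132795072), which begins further upstream.

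Per length of transcript, 7 of the 10 genes stood well above the rest. Secretin and proglucagon RNA led. Sct (chromosome 7, 141278329 to 141279133), which encodes secretin, the hormone that calls forth bicarbonate from pancreas and bile ducts, averaged 72.1 ± 7.89 RPKM (SD over 16 libraries). Gcg (chromosome 2, 62474530 to 62483653), whose product is cut into glucagon-like peptides 1 and 2 in the gut, averaged 66.1 ± 8.01 RPKM. Sct exceeded Gcg in 11 of 16 libraries, so their order was not the same in all animals.

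Below them came Sst, Chgb, Nts and Pyy. Sst (chromosome 16, 23889581 to 23890844) encodes somatostatin, an inhibitor of the release of other hormones, and averaged 44.2 ± 10.5 RPKM. Chgb, for the granule protein chromogranin B, averaged 43.1 ± 6.63 RPKM. Nts (chromosome 10, 102481756 to 102490418), for neurotensin, which promotes fat absorption and slows transit, averaged 41.3 ± 5.43 RPKM. Neighbours in this stretch did not keep their order, since Sst exceeded Chgb in 8 of 16 libraries, Chgb exceeded Nts in 9 and Nts exceeded Pyy in 10. Pyy (chromosome 11, 102106676 to 102107832), for peptide YY, a brake on transit and appetite released by the same cells as glucagon-like peptide 1, averaged 37.6 ± 6.58 RPKM. Chga (chromosome 12, 102554941 to 102565027), for chromogranin A, averaged 29.8 ± 2.57 RPKM and had the smallest spread of the 10, a coefficient of variation of 8.64%.

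A step separated these 7 from the last 3. Chga exceeded Cck in 16 of 16 libraries, by 7.93-fold on average. Cck (chromosome 9, 121489824 to 121495694), for cholecystokinin, the signal for gallbladder contraction, averaged 3.76 ± 0.801 RPKM. Neurod1 (chromosome 2, 79452641 to 79456636), a transcription factor of maturing enteroendocrine cells, averaged 1.09 ± 0.249 RPKM. Gip (chromosome 11, 96024545 to 96030828), for the duodenal incretin glucose-dependent insulinotropic polypeptide, averaged 0.560 ± 0.350 RPKM. Its counts ran from 2 to 14 per library with a median of 6, and it was left out of every test for low counts. Compared with all genes tested, the mean level of Sct lay at percentile 93.1, that of Chga at 82.5, that of Cck at 35.8 and that of Neurod1 at 16.9.

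**Figure D1:**
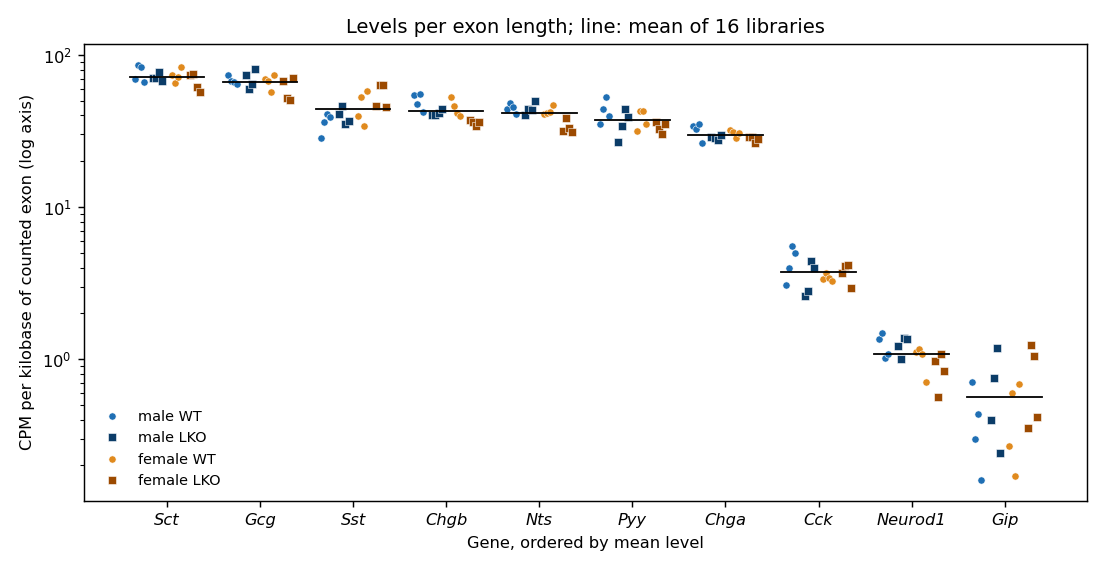
Level of each of the 10 hormone genes in RPKM on a log axis, 1 point per library and a bar at the mean of the 16 libraries, in order of the mean. Sct and Gcg lead, the next 5 genes overlap between 29.8 and 44.2 RPKM on average, and Cck, Neurod1 and Gip lie apart at 3.76, 1.09 and 0.560 RPKM.

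**Figure D2:**
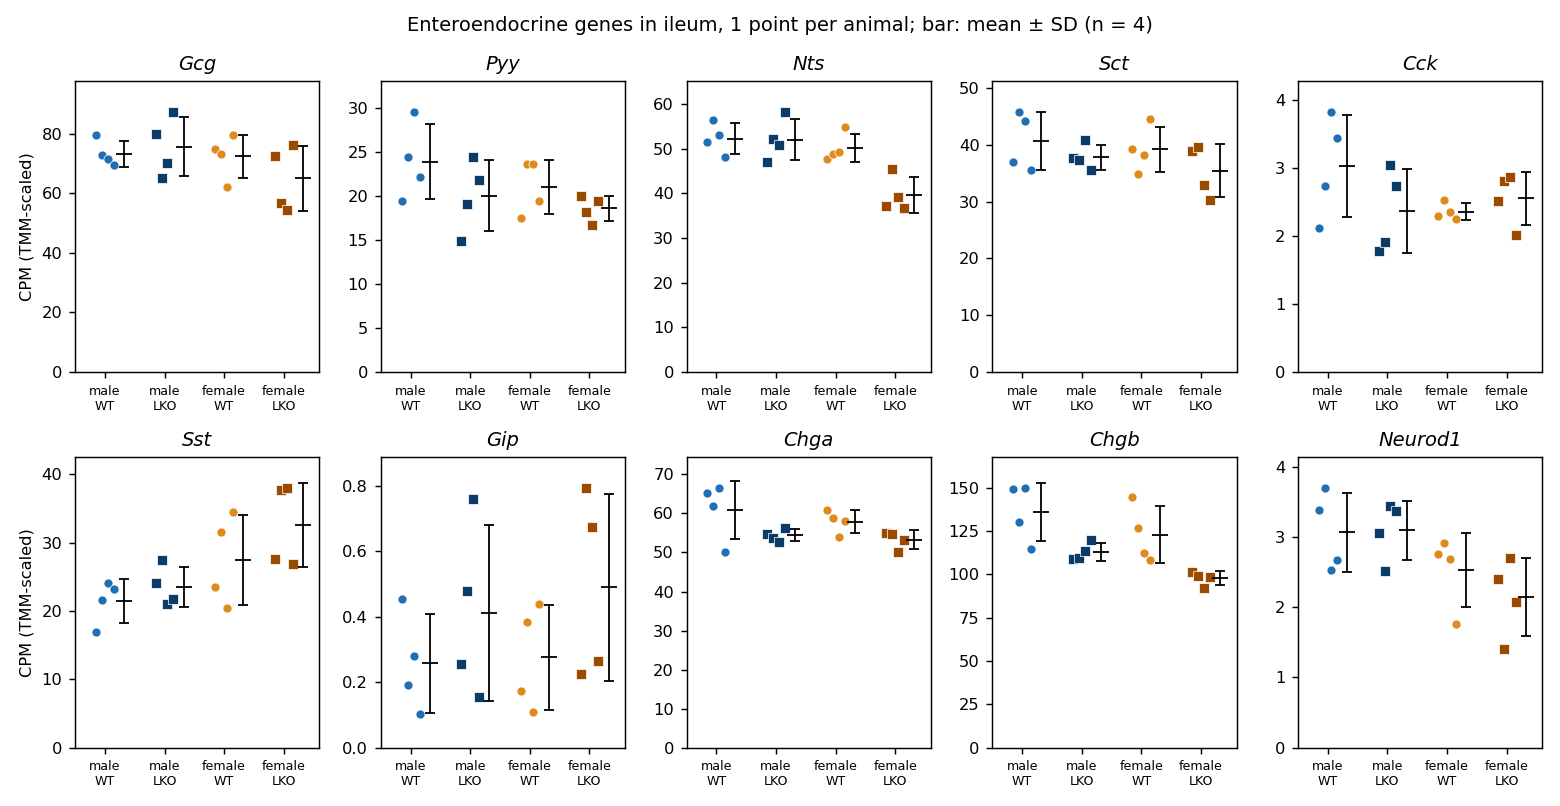
CPM of each hormone gene in each of the 16 libraries, with the group mean as a bar; axes start at 0 and differ between genes. Chgb sits lower in LKO than in WT in both sexes on average, Nts is lowest in the 4 female LKO libraries, and Sst sits higher in females.

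In males, no hormone gene was shown to differ between the genotypes. None of the 9 passed an adjusted p of 0.05 (edgeR quasi-likelihood test, Benjamini-Hochberg), where 0.0527% of all 15169 genes did, and their smallest adjusted p was 0.621. Only Chgb had an unadjusted p under 0.05, against 5.29% of all genes, and DESeq2 called 0 members and 0.416% of all genes. The largest member of the group in CPM, Chgb, stood at 149, 130.1, 150.0 and 115 CPM in the male WT animals. In the male LKO animals it stood at 109, 109, 113 and 120.0 CPM. WT replicate 4 lay inside the LKO range, so the groups overlapped, and the log2 fold change was -0.26 (SE 0.084, 95% interval -0.44 to -0.08).

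Neither hormone of the glucagon-like peptide cells was shown to differ in males. Pyy stood at 19.5, 24.5, 29.6 and 22.2 CPM in WT and at 14.9, 19.1, 24.4 and 21.9 CPM in LKO, a log2 fold change of -0.25 (SE 0.16). Gcg stood at 79.5, 72.8, 71.6 and 69.5 CPM in WT and at 80.0, 65.1, 70.2 and 87.3 CPM in LKO, a log2 fold change of 0.05 (SE 0.086) whose sign turned with the title number as a covariate (-0.045) and without male LKO replicate 4 (-0.028). Both genes overlapped broadly between the genotypes. Nts differed by 0.00 (SE 0.080), and the remaining log2 fold changes were -0.35 (SE 0.24) for Cck, -0.16 (SE 0.085) for Chga, -0.10 (SE 0.091) for Sct, 0.02 (SE 0.19) for Neurod1 and 0.14 (SE 0.12) for Sst. Of the 9 genes 6 were negative, and 50.8% of all genes were.

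In females, neurotensin and chromogranin B RNA were the members that lay lowest in LKO, without passing the adjusted threshold under edgeR. Nts stood at 47.7, 48.7, 49.2 and 54.8 CPM in the female WT animals. In the female LKO animals it stood at 37.2, 45.5, 39.1 and 36.8 CPM. Every LKO animal lay below every WT animal. The log2 fold change was -0.34 (SE 0.079, interval -0.51 to -0.17) with an edgeR adjusted p of 0.195, whereas DESeq2 gave an adjusted p of 0.0314.

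Chgb stood at 145, 127, 113 and 108 CPM in the female WT animals and at 101, 99.3, 92.3 and 98.4 CPM in the female LKO animals. The groups again did not overlap, and the 4 LKO values were closer to each other than the 4 WT values. The log2 fold change was -0.33 (SE 0.085, interval -0.51 to -0.15), with an adjusted p of 0.227 by edgeR and 0.0575 by DESeq2. Groups without overlap and lower in LKO were found for these 2 of the 9 members and for 3.28% of all 15298 genes.

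The other members overlapped between female WT and female LKO. Sst, at 23.5, 31.5, 20.4 and 34.4 CPM in WT and 27.7, 37.7, 38.0 and 26.9 CPM in LKO, had the highest log2 fold change, 0.24 (SE 0.19). Gcg, Pyy, Sct and Chga had log2 fold changes between -0.17 and -0.12. Those of the low genes Cck and Neurod1 were 0.11 (SE 0.17) and -0.22 (SE 0.23). No member passed under edgeR, where 0.0392% of all genes did, and DESeq2 called 1 of the 9 (Nts) and 1.01% of all genes. An unadjusted edgeR p under 0.05 was given to 2 members and to 11.7% of all genes.

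Taking both sexes in 1 fit, with sex as a covariate, chromogranin B was the member that fell. Its level was 136 ± 16.9 CPM in male WT against 113 ± 5.05 in male LKO, and 123 ± 16.3 in female WT against 97.9 ± 3.90 in female LKO (SD, n = 4 each). On the log2 scale the difference came to -0.30 (SE 0.061, interval -0.43 to -0.17), so Chgb fell by 18.7%, with an edgeR adjusted p of 0.0458 and a DESeq2 adjusted p of 0.00335. It was 1 of 9 members called and 1 of 42 among all 15598 genes (0.269%), 23 of which were lower in LKO (0.147%). DESeq2 called the same 1 member and 1.44% of all genes.

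The call stood near its threshold. It was kept without male WT replicate 4 or without female WT replicate 4, and lost without any other single library, at adjusted p up to 0.0937 under edgeR. Under edgeR it was also lost with an adjusted p of 0.0503 under upper-quartile scaling and of 0.344 with the number in the sample title as a covariate. The log2 fold change lay between -0.34 and -0.22 under every alternative run.

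The numbers in the titles, which are not said to be a batch, fall into 5 runs of neighbouring numbers, and genotype is unevenly spread over them. A run of 6 animals was the only one to hold all 4 groups. There Chgb stood at 115 CPM in the WT male against 109 in the LKO male, and at 108 CPM in the WT female against 99.3, 92.3 and 98.4 in the LKO females. In a run of 3 females, 2 WT animals stood at 145 and 127 CPM and the LKO animal at 101 CPM. The LKO animals lay below WT of their sex in both runs, and the other 3 runs held a single genotype each. With the run as a factor the log2 fold change was -0.22 with an edgeR adjusted p of 0.629, and 0 genes in all were called.

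Chromogranin A pointed the same way and did not pass. Its log2 fold change over both sexes was -0.14 (SE 0.052, adjusted p 0.283), from 65.1, 61.8, 66.5 and 50.1 CPM in male WT and 54.7, 53.8, 52.7 and 56.3 in male LKO. In females it stood at 60.8, 58.9, 54.0 and 57.9 CPM in WT and at 55.1, 54.8, 50.03 and 53.3 CPM in LKO. The lowest of all male values was a WT animal, replicate 4. Pyy (-0.21, SE 0.10, adjusted p 0.432) and Nts (-0.17, SE 0.067, adjusted p 0.311) were the other members with an unadjusted p under 0.05, which makes 4 of 9 members with Chgb, against 11.2% of all genes. The estimates of Gcg (-0.05), Sct (-0.12), Cck (-0.12) and Neurod1 (-0.10) were negative and that of Sst (0.19) positive. So 8 of 9 members were negative against 49.8% of all genes, and the median of the 9 members was -0.12 against 0.00 for all genes. The lean was not particular to the members, since 19 of 23 tested transcription factors of the enteroendocrine lineage were negative too (median -0.12).

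**Figure D3:**
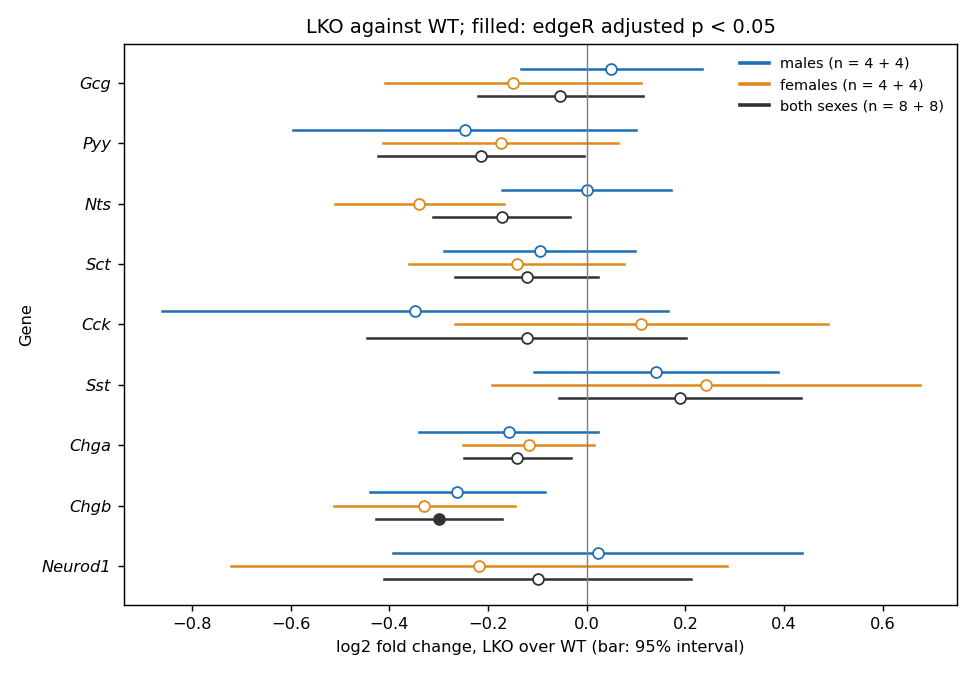
Log2 fold change of LKO over WT for the 9 tested hormone genes in males, in females and in the fit of both sexes, with bars for the 95% interval of the edgeR fit. In the fit of both sexes the interval of Chgb runs from -0.43 to -0.17, and the intervals of Gcg, Sst, Cck, Sct and Neurod1 include 0.

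Whether the genotype effect depended on sex was tested as an interaction. None of the 9 members passed, and 0 of all 15598 genes passed under edgeR and under DESeq2, while 5.64% of genes had an unadjusted p under 0.05 in edgeR. Nts was the 1 member with such a p. Its LKO over WT log2 fold change was 0.00 in males and -0.34 in females, a difference of 0.33 (SE 0.11, interval 0.10 to 0.57) with an edgeR adjusted p of 0.845. For Chgb the difference between the sexes was 0.06 (interval -0.20 to 0.32), and for Cck, with few counts, -0.47 (interval -1.09 to 0.16). The differences of Gcg (0.20), Neurod1 (0.23), Sct (0.04), Chga (-0.04), Pyy (-0.08) and Sst (-0.11) had intervals that included 0.

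The 2 chromogranins also varied together within groups. After removing the group means, Chga and Chgb correlated over the 16 libraries with Pearson's r = 0.81 (permutation p = 0.00086, adjusted p = 0.0310 over 36 pairs of members) and Spearman's rho = 0.86 (permutation p = 0.00025, adjusted p = 0.00900). Leaving out the 2 animals whose Chga was most extreme around its median gave r = 0.72. Within the run of 6 animals that held all 4 groups, r was 0.76 (exact permutation p = 0.0417) and rho 0.71 (exact permutation p = 0.136). Male WT, male LKO and female WT had 1 animal each there, and animals were exchanged across groups. Over the 16 libraries they were exchanged only within groups, so the p-values of the 2 tests are not alike. Over the 16 libraries Chga with Chgb was the only pair of the 36 to pass, with 22 pairs positive, 14 negative and a median r of 0.06. Pyy and Cck came next with r = 0.65 (permutation p = 0.0341, adjusted p = 0.410).

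The ratio of the counts of Chgb to those of Chga, looked at after the values were known and not tested, ran from 2.10 to 2.29 in male WT and from 2.0 to 2.15 in male LKO. In females it ran from 1.87 to 2.38 in WT and from 1.81 to 1.85 in LKO. The ratio was lowest and tightest in the female LKO animals. The 2 genes share library and depth in each animal.

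**Figure D4:**
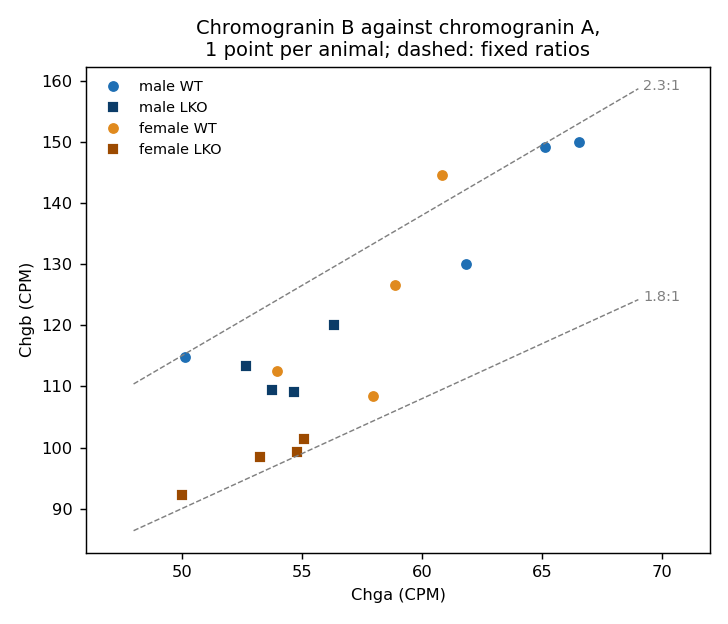
Chgb against Chga in CPM, 1 point per library, coloured by group, with dashed lines at fixed ratios of the 2 genes. The male WT libraries other than replicate 4 have the highest Chga, and the 4 female LKO libraries lie at the bottom, with Chgb between 92.3 and 101 CPM.

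Likeness to other genes was measured in the same way, as Pearson's r of group-centred log2 CPM over 16 libraries, among 14413 genes with at least 1 CPM on average. The gene most like the mean of the 9 members was Rps6kb2 (r = 0.88), followed by Ubl7, Eif3k, Emc3 and Pllp. The closest single gene was Rab9 for Chga (r = 0.91), Nxf7 for Chgb (0.85), 1810030O07Rik for Gcg (0.92), Ankrd13b for Pyy (0.91) and Tmem41a for Sct (0.90). It was Nsmce2 for Nts (0.89), Cacna1h for Sst (0.88), Cd4 for Neurod1 (0.87) and 1700001C19Rik for Cck (0.87). None of these is a hormone gene, but the 10 members had been left out of the candidates beforehand. Each r is the highest of 14413.

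Sex was examined next, first within each genotype. In WT no member passed, where 0.25% of all 15229 genes did under edgeR. The member with the smallest adjusted p was Sst, at 17.0, 21.6, 24.2 and 23.2 CPM in males and 23.5, 31.5, 20.4 and 34.4 CPM in females, a male over female log2 difference of -0.37 (SE 0.17, adjusted p 0.381). The other log2 differences were positive, 0.35 (SE 0.21) for Cck, 0.27 (SE 0.21) for Neurod1, 0.17 (SE 0.13) for Pyy, 0.14 (SE 0.11) for Chgb and between 0.01 and 0.06 for Gcg, Sct, Nts and Chga. The ranges of every member overlapped, and no member had an unadjusted p under 0.05 in edgeR, where 13.9% of all genes did, or passed in DESeq2, where 1.64% did.

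In LKO no member passed under edgeR either, where 0.0984% of all 15250 genes did, but 3 passed under DESeq2, where 6.84% of all genes did. Nts was higher in males, at 47.0, 52.1, 50.8 and 58.1 CPM against 37.2, 45.5, 39.1 and 36.8 CPM in females, with no overlap and a log2 difference of 0.39 (SE 0.086, adjusted p 0.0675 by edgeR and 0.00611 by DESeq2). Chgb was higher in males without overlap, with a log2 difference of 0.20 (SE 0.058, adjusted p 0.0956 and 0.0305). Sst was lower in males, at 24.2, 27.4, 21.0 and 21.7 CPM against 27.7, 37.7, 38.0 and 26.9 CPM in females, with a log2 difference of -0.46 (SE 0.13, adjusted p 0.0998 and 0.0261). A single male, at 27.4 CPM, lay above the lowest female. Neurod1 had the highest log2 difference, 0.51 (SE 0.21, adjusted p 0.190 by edgeR and 0.178 by DESeq2), at 3.05, 2.51, 3.45 and 3.36 CPM in males and 2.41, 1.404, 2.70 and 2.07 CPM in females. Its groups overlapped. The log2 differences of Gcg, Pyy, Sct, Chga and Cck were 0.21, 0.10, 0.09, 0.03 and -0.11. Groups without overlap were found for 2 of 9 members and 12.9% of all genes. The number of genes called by edgeR rose from 15 to 665 without female LKO replicate 4, where Sst was called (adjusted p 0.0438).

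Over both genotypes, with genotype as a covariate, somatostatin RNA was lower and neurotensin RNA higher in males. Sst averaged 21.5 ± 3.19 and 23.6 ± 2.91 CPM in male WT and male LKO, and 27.5 ± 6.61 and 32.6 ± 6.11 CPM in female WT and female LKO (SD, n = 4 each). The log2 difference was -0.41 (SE 0.12, interval -0.65 to -0.16, edgeR adjusted p 0.0338). For Nts the groups averaged 52.3 ± 3.52, 52.0 ± 4.63, 50.1 ± 3.17 and 39.7 ± 4.01 CPM in the same order, and the female LKO animals alone stood low. Its log2 difference was 0.23 (SE 0.067, interval 0.09 to 0.37, edgeR adjusted p 0.0347).

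These were 2 of 9 members called, against 11% of all 15598 genes, and DESeq2 also called 2 members and 15.5% of all genes. Neurod1 (0.40, SE 0.15, adjusted p 0.0860) and Chgb (0.18, SE 0.061, adjusted p 0.0668) were higher in males without passing, and Gcg, Pyy, Cck, Sct and Chga had log2 differences between 0.05 and 0.14. Neither call was firm under edgeR. Nts stood at adjusted p 0.321 with the title number as a covariate and 0.614 with the run of numbers as a factor, and Sst at 0.0959 and 0.298. Upper-quartile scaling took Nts to an adjusted p of 0.0659. With single libraries left out in turn, Nts passed in 6 of 16 fits and Sst in 8, at adjusted p up to 0.0771 and 0.0733.

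**Figure D5:**
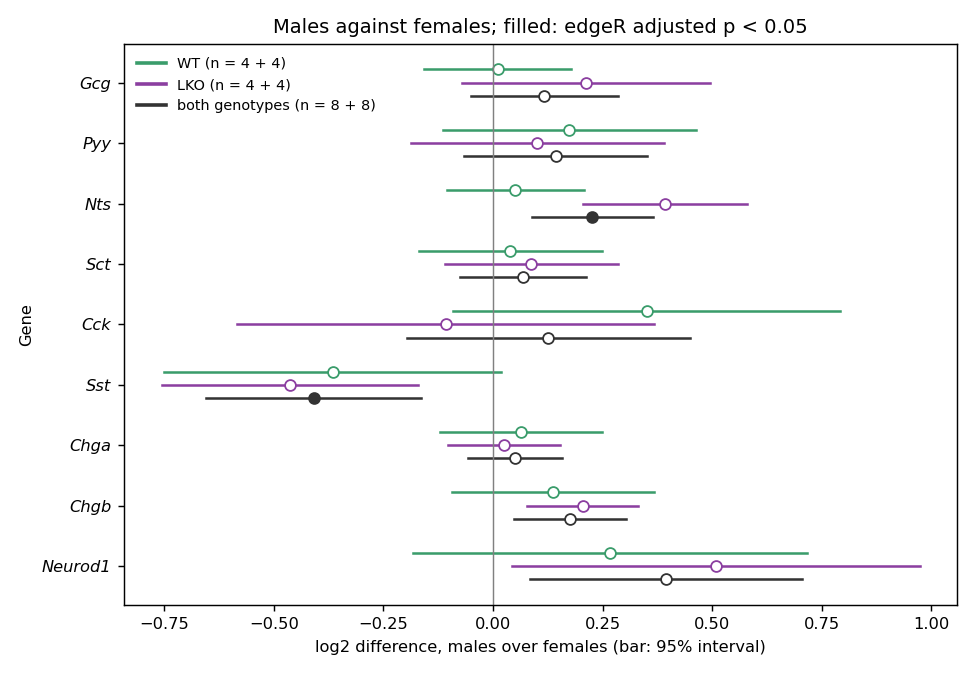
Log2 difference of males over females for the 9 tested hormone genes in WT, in LKO and in the fit of both genotypes, with bars for the 95% interval of the edgeR fit. Over both genotypes Sst lies at -0.41 and Nts at 0.23, and neither interval includes 0.

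Markers of other cells moved with sex in the same fit. Of 10 smooth muscle markers 9 passed as lower in males, where 5.44% of all genes did, and the tenth was negative. Their summed level ran from 3961 to 4383 CPM in male WT and from 3320 to 4305 CPM in male LKO, against 4307 to 6468 CPM in female WT and 4564 to 6294 CPM in female LKO. Of 15 tested enteric neuron and glia markers 14 were negative and 4 passed as lower in males. Their sum ran from 90.1 to 103 CPM and from 76.8 to 115 CPM in male WT and male LKO, and from 87.2 to 122 CPM and from 112 to 140.5 CPM in female WT and female LKO. Somatostatin is also made by enteric neurons, and the part of these markers in the sex difference of Sst was not tested. Of 11 Paneth cell markers all were negative and 6 passed as lower in males. Ang4, among these 6, was also in the colon list and is counted in both. The summed Paneth level was 16074 to 18527 CPM in male WT, 22249.6 to 28561 in male LKO, 21331 to 30237 in female WT and 25803 to 30253 in female LKO. In the remaining lists 1 of 8 tuft cell, 2 of 7 pancreas, 1 of 9 T cell and 1 of 13 proximal or distal markers passed as lower in males. The last was Fabp1, at a log2 difference of -1.24 (SE 0.33, edgeR adjusted p 0.0285). Higher in males were 2 of 11 enterocyte markers and 1 of 10 goblet cell markers, and colon markers passed 2 in each direction. None of 10 B cell markers passed, though all 10 were negative (median -1.73). In LKO alone, where DESeq2 called 3 members, it called 6 of 6 tested B cell, 8 of 10 smooth muscle and 4 of 8 tuft cell markers. It called 1 to 4 in each other marker list there, and 6.84% of all genes. Every tested B cell, smooth muscle and tuft cell marker was lower in LKO males than in LKO females. The part of these lists in the sex differences of Nts, Sst and Chgb was not tested.

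Other hormone genes and the cell machinery were read from lists of known function. Of 26 other gut peptide and amine genes that were counted, 19 were tested over both sexes, and none passed for genotype under edgeR or DESeq2. The highest of them per length were the guanylate cyclase activators Guca2a (701 RPKM) and Guca2b (212 RPKM), made by several epithelial cell types, and the endothelin Edn3 (24.7 RPKM). For sex 3 of the 19 passed, against 11% of all genes, all of them lower in males: Calcb, for a calcitonin gene-related peptide (-0.98, SE 0.23), Grp, for gastrin-releasing peptide (-1.26, SE 0.28), and Nmu, for neuromedin U (-1.15, SE 0.26), with edgeR adjusted p between 0.0108 and 0.0139. All 3 are known from enteric neurons, and all averaged under 3 CPM over the 16 libraries.

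Among 24 tested genes of hormone processing and secretory granules none passed for genotype, with 12 negative and 12 positive. The highest per length were Cpe, for the carboxypeptidase that trims prohormones (45.5 RPKM), the vesicle protein gene Vamp2 (39.0 RPKM) and Pam, for the enzyme that amidates peptide ends (16.5 RPKM). For sex 22 of the 24 were negative and 4 passed as lower in males, against 5.44%. They were Pcsk1n, for an inhibitor of prohormone convertase 1 (-0.85, SE 0.18, edgeR adjusted p 0.00818), Cpe (-0.32, SE 0.075, adjusted p 0.0133), Pam (-0.23, SE 0.067, adjusted p 0.0375) and Syp, for synaptophysin (-0.30, SE 0.095, adjusted p 0.0442). Neurons express all 4 as well.

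Of 23 tested transcription factors of the enteroendocrine lineage 0 passed for genotype and 0 for sex under edgeR. For genotype 19 were negative and 4 positive, and for sex 15 were negative and 8 positive. DESeq2 called 0 and 2 of them, against 1.44% and 15.5% of all genes. At an unadjusted edgeR p under 0.05, there were 4 for genotype and 4 for sex, against 11.2% and 29.3% of all genes. The highest per length were Foxa1 (14.0 RPKM), Sox4 (5.88 RPKM) and Foxa2 (2.51 RPKM), which other epithelial cells also express. Neurog3, the factor that commits progenitors to the enteroendocrine fate, averaged 1.66 CPM over the 16 libraries.

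Of 16 tested sensors of nutrients and bile acids none passed for genotype. The highest were Slc5a1, for the glucose transporter SGLT1 (231 RPKM), Nr1h4, for the bile acid receptor FXR (101 RPKM), and Lpar5, for a lysophosphatidic acid and peptone receptor (14.1 RPKM). Lpar5 passed for sex, higher in males by 0.28 (SE 0.064, edgeR adjusted p 0.0108).

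Among 18 tested receptors and peptidases that act on these hormones none passed for genotype under edgeR. DESeq2 called 2 of them, against 1.44% of all genes. The aminopeptidase genes Anpep (2660 RPKM) and Enpep (379 RPKM) and Dpp4 (117 RPKM), whose product inactivates glucagon-like peptide 1, are brush border genes of enterocytes. Enpep had the smallest adjusted p of these 3 for genotype, with a log2 fold change of -0.30 (SE 0.069, adjusted p 0.0679 by edgeR and 0.00950 by DESeq2). Fap, for a fibroblast peptidase, was lower in males by a log2 difference of -0.42 (SE 0.12, edgeR adjusted p 0.0361).

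For the genotype comparison over both sexes, none of the 11 lists of other tissue and cell markers had a gene past the edgeR threshold. DESeq2 called 5 Paneth, 2 goblet, 2 proximal or distal and 1 colon marker, against 1.44% of all genes. In males alone 3 Paneth cell markers (Lyz1, Itln1 and Mmp7) passed under edgeR as higher in LKO, among the 8 genes called in all, and in females no marker did. Summed B cell markers ran from 19.1 to 139 CPM in male WT, 24.3 to 28.0 in male LKO, 25.5 to 81.3 in female WT and 31.1 to 455 in female LKO. Of the 11 Paneth cell markers all were positive in LKO over both sexes, 8 with an unadjusted edgeR p under 0.05. The goblet markers were negative in 8 of 10, 3 of them with such a p, against 11.2% of all genes. The part of these markers in the Chgb difference was not tested.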

How the data were processed

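Terminal ileum RNA of 16 animals was sequenced as stranded mRNA libraries with single-end reads. The authors aligned the reads to the mouse genome (mm10) with STAR 2.5.2, keeping uniquely mapped reads with at most 4 mismatches, and counted reads over exons with HOMER 4.10, per the submitters' processing notes and the study's methods. The deposited values are raw counts per gene for 24940 genes, not normalised, with 1 RefSeq transcript listed per gene. The strand option of the counting and the annotation version are not given in the sources used here, so reads of overlapping genes may be shared. The table places 410 of them at more than 1 position, and no library held a read of 4426. Every value column of the table carried the title of a single sample, and 0 columns were left unmapped.

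The titles of the samples gave genotype, sex and replicate number, with 4 animals to a group. The fits therefore weighed group differences against the spread between animals. The 10 members, the 17 gene lists and the tests were chosen with earlier results of these data known. In each fit filterByExpr left out weakly expressed genes, libraries were scaled by TMM, and differences were tested with edgeR 4.0.16 (robust quasi-likelihood fit and F test) in R 4.3.3 on the counts as deposited. Benjamini-Hochberg adjustment ran over all genes tested, and an adjusted p under 0.05 was called. Genotype was compared within males, within females and over both sexes with sex as a covariate, the interaction was tested over 16 libraries, and sex was compared in the mirrored way. DESeq2 1.42.0 was run on the same counts. Intervals cover 95%. CPM used TMM-scaled library sizes, log2 CPM a prior count of 2, and RPKM the transcript length in the deposited table. A gene at 0 counts could still stand at 0.0497 to 0.191 CPM (3 counts), which covers counting error only.

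Each comparison names the 9 tested members, and Gip is given by its counts. Of the other enteroendocrine lists, genes past the threshold and the 3 of highest mean RPKM are named, and cell type lists are given as counts and sums. The closest genes are those of highest r among genes other than the members with a mean of at least 1 CPM. Correlations between members used group-centred log2 CPM with 100000 permutations within groups, two-sided. For the run of 6 animals all permutations were used, across groups. Promoter windows came from RefSeq (GRCm38.p6). The alternatives were DESeq2, RLE and upper-quartile scaling, no filter, at least 10 counts in every library, a non-robust fit, the newer quasi-likelihood method of edgeR, a fit on all 16 libraries, the deepest library thinned, the replicate number as a block, the title number as a covariate or, in runs, as a factor, and each library left out. The fits were run on simulated counts with planted log2 changes larger than any member difference printed here. Detection and error at the printed sizes were therefore not tested. The correlation code was run on 1 related and 1 unrelated pair of made values. Python 3.11.15, scipy 1.17.1 and matplotlib 3.10.9 were used.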

Additional observations from a re-analysis of the deposited data

How the results depend on the processing

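Values are members called out of 9 at an adjusted p of 0.05 or log2 differences. The direction of members turned in 15 of the 63 pairs of member and comparison, none of which passed the threshold, and the largest of which was 0.14 in size. Genotype in females: DESeq2 called 1 member (Nts, adjusted p 0.0314) and 154 genes, against 0 and 6 under edgeR, where other settings gave 10 (newer method), 12 (thinned, and fit on all 16 libraries) and 15 (no filter, and replicate block) genes. Genotype over both sexes: the call of Chgb (1 member, 42 genes) became 0 under upper-quartile scaling, in the non-robust fit (adjusted p 0.0567), with the replicate block (adjusted p 0.0608, 16 genes), with the title number as covariate (2 genes) and with the runs of title numbers as a factor (0 genes), an alternative chosen after seeing the data. DESeq2 called 224 genes in that comparison. Leaving out single libraries gave 0 to 1 members and 5 to 102 genes, the call remaining without male WT replicate 4 (adjusted p 0.00686) and without female WT replicate 4 (adjusted p 0.0314). Sex in LKO: 0 members and 15 genes became 3 and 1043 under DESeq2, 1 and 139 without a filter, 1 and 403 in the fit on all 16 libraries, and the genes 78 under upper-quartile scaling, 8 in the non-robust fit and 1 with at least 10 counts everywhere; it was 0 to 1 members and 7 to 665 genes with single libraries left out, both the highest without female LKO replicate 4 (Sst, adjusted p 0.0438). Sex over both genotypes: 2 members and 1723 genes became 1 under upper-quartile scaling, 0 with the title number (326 genes) or its runs (90 genes), and 0 to 3 with single libraries left out, with 0 without male LKO replicate 1, 3 or 4, female WT replicate 2 or female LKO replicate 3. Of the 9 list genes named for sex, 1 (Grp) was still called with the title number, 0 with its runs, and Syp was lost with the replicate block (adjusted p 0.0546). Of 16 same-numbered pairs of animals, 2 correlated above 0.1 (range -0.10 to 0.26), both between female WT and female LKO (0.18 and 0.26). Differently numbered pairs were not compared, so whether the replicate numbers pair the animals is not settled. The block changed no other call printed here. Directions turned with the title number as covariate for Gcg (-0.045), Sct (0.0029) and Neurod1 (-0.033) in males and Pyy (-0.026) between the sexes in LKO, with its runs for Neurod1 (0.020) for genotype and Pyy (-0.014) for sex, and with upper-quartile scaling for Gcg (-0.0053) between the sexes in WT and Chga (-0.023) in LKO. With single libraries left out, genotype in males ran from -0.028 to 0.12 for Gcg, -0.060 to 0.049 for Nts and -0.059 to 0.12 for Neurod1. The interaction ran from -0.19 to 0.042 for Pyy, -0.029 to 0.11 for Sct, -0.23 to 0.017 for Sst and -0.019 to 0.12 for Chgb. The sex difference ran from -0.057 to 0.059 for Gcg and -0.015 to 0.11 for Sct in WT, and from -0.0081 to 0.22 for Pyy, -0.25 to 0.013 for Cck and -0.0095 to 0.041 for Chga in LKO. Gene counts also differed by more than 1.5 times from 8 for genotype in males (63 under DESeq2, 25 without a filter, 16 with the block, 3 with the title number, 4 in the fit on all 16 libraries) and from 38 for sex in WT (250 under DESeq2, 71 without a filter, 12 in the non-robust fit, 14 with at least 10 counts everywhere, 17 with the title number). With single libraries left out, 5 to 29 genes were called for genotype in males, 0 to 4 in females and 9 to 64 for sex in WT. The causes were not tested. Gip, at 2 to 14 counts, could not be tested at this depth.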
